A study of Mus musculus with 2 samples.

Results

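The promoters of 10 genes of meiosis and germ cell identity were examined: Sycp1, Sycp3, Hormad1, Rec8, Smc1b, Stag3, Dazl, Sohlh2, Stra8 and Tex101. A promoter was taken as all positions within 1 kb of any transcription start that GENCODE M21 annotates for the gene, and the remainder of the gene served as its gene body. The deposited table lists 1782730 CpG cytosines, of which 398 lay in these promoters, and 9 of the 10 genes had at least 3 of them. Rec8 had none.

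The cells were Xmas mESCs, female mouse embryonic stem cells of a C57/Bl6 strain in which GFP and mCherry, both driven by the Hprt promoter, sit on different X chromosomes. FACS on these reporters gave XX cells, which carry both, and XO cells, which have lost an X chromosome. All cells had been kept for 7 passages by the labels, while the study's methods give a higher number, in the modified 2i/LIF method, so both groups share the inhibitors of MEK and GSK3β. DNA methylation was read by reduced representation bisulfite sequencing (RRBS) in 1 XX library and 1 XO library. There are no replicates, so no difference below was tested and none has a replicate error. The values are %mCpG, the percent of reads over a cytosine that were methylated, and each is an average over the cells and alleles of the library. The table gives no read counts, so the depth is unknown and a cytosine listed at 0% or 100% may rest on few reads. Differences are XX minus XO in percentage points.

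In meiosis, cohesin complexes with germ cell subunits hold sister chromatids together and organise them along an axis, and the synaptonemal complex then joins the axes of homologous chromosomes. Genes for these proteins are silent in most other cells, and many of them have CpG-rich promoters on which DNA methylation is a well known means of repression. In embryonic stem cells a Polycomb complex that contains E2F6, MGA and MAX is also known to repress such genes, through E2F sites and E-boxes near their starts.

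The stretches below lie directly before the starts or, at Dazl, further upstream, and some larger differences of these genes lay outside them. Each is printed 5′ to 3′ along the gene from the GRCm38.p6 reference, with capitals for the CpGs that have a listed value on at least 1 strand. Sycp1, Tex101 and Smc1b are shown because their cytosines close to the start differed most, and Hormad1 because its promoter was the least methylated in XO cells. Dazl is shown for its upstream stretch, a choice made with its values already known. The Smc1b stretch is cut at its upstream end where the divergent gene Ribc2 starts, and the others are the 250 bases before the start apart from Dazl, which runs from -602 to -430. Positions are given in bases from the reference start of the gene, negative before it. At Tex101 a longer transcript starts further upstream, so its stretch lies in an intron of that transcript.
Sycp1 (chr3:102936101-102936350, minus strand): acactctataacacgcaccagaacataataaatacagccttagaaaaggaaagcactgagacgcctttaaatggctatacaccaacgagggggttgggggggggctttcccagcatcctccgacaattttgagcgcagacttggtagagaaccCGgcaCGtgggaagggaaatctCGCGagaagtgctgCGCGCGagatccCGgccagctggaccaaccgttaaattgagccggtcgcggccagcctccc
Hormad1 (chr3:95559427-95559676, plus strand): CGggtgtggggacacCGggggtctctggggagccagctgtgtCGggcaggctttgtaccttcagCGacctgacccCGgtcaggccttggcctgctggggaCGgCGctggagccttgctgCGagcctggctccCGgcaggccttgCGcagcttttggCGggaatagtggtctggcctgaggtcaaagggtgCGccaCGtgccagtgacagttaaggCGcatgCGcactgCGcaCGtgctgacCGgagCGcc
Smc1b (chr15:85131965-85132077, minus strand): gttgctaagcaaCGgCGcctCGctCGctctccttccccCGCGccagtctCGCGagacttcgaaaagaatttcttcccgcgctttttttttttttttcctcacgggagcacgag
Dazl (chr17:50294066-50294238, minus strand): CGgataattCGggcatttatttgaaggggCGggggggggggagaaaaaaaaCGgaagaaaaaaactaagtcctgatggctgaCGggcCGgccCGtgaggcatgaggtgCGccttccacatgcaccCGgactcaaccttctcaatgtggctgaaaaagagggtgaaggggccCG
Tex101 (chr7:24672051-24672300, minus strand): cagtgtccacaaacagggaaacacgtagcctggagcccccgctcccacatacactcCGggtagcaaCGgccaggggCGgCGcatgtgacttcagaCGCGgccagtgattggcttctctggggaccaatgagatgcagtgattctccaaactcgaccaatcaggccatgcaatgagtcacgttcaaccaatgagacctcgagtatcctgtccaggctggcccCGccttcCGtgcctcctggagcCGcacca
The cytosines listed in these stretches had mean methylation of 4.14% (XX) and 23.9% (XO) at Sycp1 (14 cytosines), 0.968% and 5.66% at Hormad1 (31), 72.5% and 28.3% at Smc1b (8), 23.2% and 57.8% at Dazl (15), and 54.3% and 72.9% at Tex101 (9). Smc1b was thus higher in XX cells in this stretch and the other 4 were lower. The 8 Smc1b cytosines were all on the reverse strand and may come from the same reads.

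Over the whole promoter windows, XX means were below XO means at Sycp1, Sycp3, Hormad1, Dazl, Sohlh2, Stra8 and Tex101, and above them at Stag3 and Smc1b. Lower means at 7 of 9 genes are close to the background, since 72.0% of 15331 protein-coding promoters with at least 3 listed cytosines had a lower XX mean. The 9 members had a median difference of -7.02 points, against -2.14 points over all these promoters, and the medians of the levels were 15.3% in XX and 19.2% in XO cells against 8.76% and 10.9%. A difference of at least 10 points towards lower methylation in XX cells was found at 2 members, Sycp1 and Tex101, and at 14.0% of all promoters. In the other direction, Smc1b passed 10 points, as did 1.57% of all promoters. At 6 members the XO mean was between 10% and 30%, as at 6162 protein-coding promoters, and these had a median of -7.04 points, where the latter had -3.74 points. Of these 6162 promoters 80.6% were lower in XX cells, 9.56% by at least 10 points. Among the 6 members, Sycp1, Sycp3, Dazl and Sohlh2 were lower and Stag3 and Smc1b higher, and only Sycp1 was lower by at least 10 points.

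**Figure D1:**
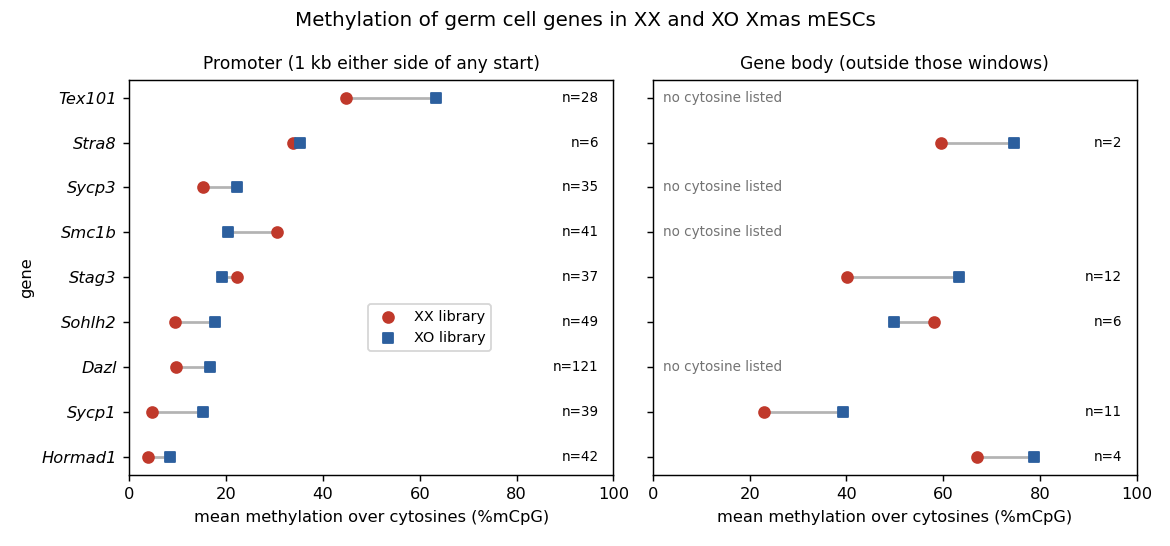
Mean methylation (%mCpG, 0 to 100) over the listed cytosines of each gene in the XX library (circles) and the XO library (squares), for promoters on the left and gene bodies on the right, with n the number of cytosines and no error bars because there was 1 library per karyotype. Genes are ordered by promoter methylation in XO cells, from Hormad1 at 8.44% to Tex101 at 63.3%, and the circle lies to the right of the square only at Smc1b and Stag3 among promoters and at Sohlh2 among gene bodies.

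In order of XO methylation the promoters ran from Hormad1, Sycp1, Dazl, Sohlh2, Stag3, Smc1b and Sycp3 to Stra8 and Tex101. From Sycp1 to Sycp3 the XO means covered only 15.2% to 22.3%, and with 1 library the order of neighbours within that span cannot be told from measurement error. The strands give a rough view of that error at 108 CpGs of these promoters, mixed with differences between positions. Their values differed by a median of 2.38 points (XX) and 5.14 points (XO), whichever strand was higher, and the difference XX minus XO varied between strands with an SD of 16.1 points. At 24 of these CpGs, which lie in CCGG sites, the strands were read from different stretches between such sites, as described below. There the median gaps were 4.87 points (XX) and 13.6 points (XO), against 1.71 and 3.94 points at the other 84. The SD therefore mixes measurement error with differences between stretches, and these were not separated. Single values are uncertain, and each gene is given below on both strands as well as in total.

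Sycp1 (chr3:102818499-102936100), the transverse filament protein of the synaptonemal complex, had 39 listed cytosines, all of them around its upstream start and none around an internal one. They had mean methylation of 4.77% (XX) and 15.2% (XO). The forward strand gave 4.49% and 18.8% (17 cytosines) and the reverse strand 4.99% and 12.5% (22 cytosines), so XX was lower on both. The difference was concentrated just upstream of the gene, where the 14 cytosines from -97 to -48 had a difference of -19.8 points and similar values on the strands, -18.4 and -21.2 points. A single cytosine at -599 had 15.8% and 60%. Of the 14, 12 were lower in XX cells, and the other two, which lie in the E-box of the sequence printed above, were listed at 0% in both libraries. Within an intron, at 216 to 284 bases, the averages were 4.15% and 9.82%, and at 596 to 626 bases they were 6.25% and 3.57%.

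Sycp3 (chr10:88459569-88473236), a protein of the axial and lateral elements, had 35 listed cytosines, all downstream of the start. They had mean methylation of 15.3% (XX) and 22.3% (XO). The difference was -9.94 points on the forward strand (20 cytosines) and -3.13 points on the reverse strand (15 cytosines). Both libraries were less methylated near the start than further into the gene. The levels were 8.82% in XX and 12.4% in XO cells between 56 and 132 bases from the start, and 26.8% and 50.96% over 4 cytosines between 418 and 476 bases, each of which was lower in XX cells.

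Hormad1 (chr3:95559677-95587671), which marks chromosome axes that have not synapsed, had 42 cytosines, with 3.83% in XX and 8.44% in XO cells. The strands gave -4.83 points (forward, 20 cytosines) and -4.42 points (reverse, 22 cytosines). The start itself was nearly free of methylation, with 0.833% in XX and 1.25% in XO cells from -9 to 29. From -118 to -8, XX cells had 0.498% and XO cells 8.46%, and 11 of 12 cytosines were lower in XX cells. Further out, from -450 to -306, the libraries were closer to each other again, with 20.8% and 24.5%.

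Of the cohesin members, Smc1b and Stag3 had XX means above their XO means, which for neither held on both strands, and Rec8 had no value. Smc1b (chr15:85064689-85131964), the germ cell paralogue of the cohesin ATPase subunit Smc1a, had 41 cytosines around its upstream start that had mean methylation of 30.6% (XX) and 20.4% (XO). The strands differed in direction, but their cytosines lie at partly different positions. On the forward strand (20 cytosines) XX cells had 23.3% and XO cells 25.3%, and on the reverse strand (21 cytosines) they had 37.5% and 15.8%. The window also holds the start of Ribc2, 114 bases away on the opposite strand, so the same cytosines are the promoter of both genes.

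The position of the values at Smc1b was resolved by restriction fragments. Of all listed cytosines, 99.98% lay within 100 bases of a CCGG site, the target of MspI, which is the usual enzyme of RRBS although the sources used here do not name it. The stretch between neighbouring CCGG sites is called a fragment here. Cytosines of 1 strand and 1 fragment may come from the same reads, so they were not taken as independent. The percent values cannot prove this, but equal values recur within such sets. On the reverse strand of Smc1b, the cytosines at -98, -93 and -89 each had 75% in XX and 21.4% in XO cells. Counts of cytosines within 1 fragment therefore need not be separate readings. In the Smc1b fragment from -131 to 135, 17 cytosines had mean methylation of 66.9% (XX) and 31.0% (XO), and 16 of them were higher in XX cells, with XX values from 46.7% to 75% and XO values from 15.4% to 54.5%. Its 11 reverse-strand cytosines lie at the upstream end, from -131 to -62, with 70.7% (XX) and 26.4% (XO), and its 6 forward-strand ones at the other end, from 68 to 135, with 60% and 39.4%. The next fragments upstream were almost unmethylated, with 0.313% in XX and 3.93% in XO cells from -172 to -130 and 2.24% and 2.89% from -268 to -171. Downstream, at 225 to 292 bases, all 5 cytosines were on the forward strand and lower in XX cells, at 18.5% (XX) and 49.1% (XO) on average. Without the fragment over the start the remaining 24 cytosines had mean methylation of 4.82% (XX) and 12.9% (XO), so the higher XX mean rested on that fragment alone.

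That fragment, at 265 bp, was the longest of the 50 in these promoters. The CpG at its upstream CCGG site was read on its strands from different fragments, and the values were 3.13% (forward) and 66.7% (reverse) in XX cells, against 0% and 21.4% in XO cells. Strand gaps of at least 20 points were found at 16.0% (XX) and 20.7% (XO) of 41891 such CpGs in protein-coding promoters. Among the 24 such CpGs of the members the share was 20.8% in each library. At the other 84 CpGs of the members it was 1.19% (XX) and 13.1% (XO). Over 245826 other CpGs of protein-coding promoters it was 2.28% and 4.75%, so large XO strand gaps were more frequent at the members. Long fragments were also the more methylated ones in general. The 14 fragments of 150 bp or longer had medians of 37.96% (XX) and 50.03% (XO), and the 36 shorter ones 5.50% and 9.29%. Over all protein-coding promoters the same medians were 34.8% and 43.7% for long and 2.03% and 2.46% for short fragments. The part of fragment length in the differences between genes was not tested.

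Stag3 (chr5:138280240-138312393), a cohesin subunit of germ cells, had 37 cytosines with 22.2% in XX and 19.2% in XO cells. Here too the strands disagreed, with 25.9% in XX and 16.3% in XO cells on the forward strand (23 cytosines) and 16.2% and 23.8% on the reverse strand (14 cytosines). From -467 to -283, 11 cytosines had 42.1% and 31.4%. From -759 to -691, 4 cytosines of a 233 bp fragment, all on the forward strand, had 32.4% and 3.57%. From -1020 to -835 3 cytosines had 13.9% and 43.6%. A run of 12 cytosines from -526 to -466, was unmethylated in both libraries (0.160% and 0.887%). The window also holds starts of Gpc2 and Gm43720, 521 and 568 bases away on the opposite strand. The Gpc2 start lies in the run from -526 to -466. Of the 37 cytosines, 34 lie before the Stag3 reference start, and these are promoter cytosines of Gpc2 and Gm43720 too. No cytosine was listed between -283 and 403. A single cytosine in the window of an internal start, 19650 bases from the reference start, was listed at 73.5% (XX) and 96% (XO). With each of the 7 fragments counted once, that cytosine is a whole fragment. Stag3 then stood at 31.2% (XX) and 33.0% (XO), so its direction turned.

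Rec8 (chr14:55618037-55625395), the kleisin of meiotic cohesin, had no listed cytosine in its promoter windows or gene body, although these windows hold 104 CpGs and 8 CCGG sites in the reference. Nothing can be said of its promoter from these data. Within 25 kb on either side of the gene, 246 cytosines had mean methylation of 7.86% (XX) and 13.9% (XO). The ubiquitous cohesin genes were lower in XX cells at 5 of 5 promoters (Smc1a, Smc3, Rad21, Stag1 and Stag2), a direction found at 72.0% of all protein-coding promoters. Their differences lay between -5.68 and -1.42 points and their XO means between 8.09% and 16.8%. Smc1a and Stag2 lie on the X chromosome, of which XO cells have lost a copy, whereas all members are autosomal.

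**Figure D2:**
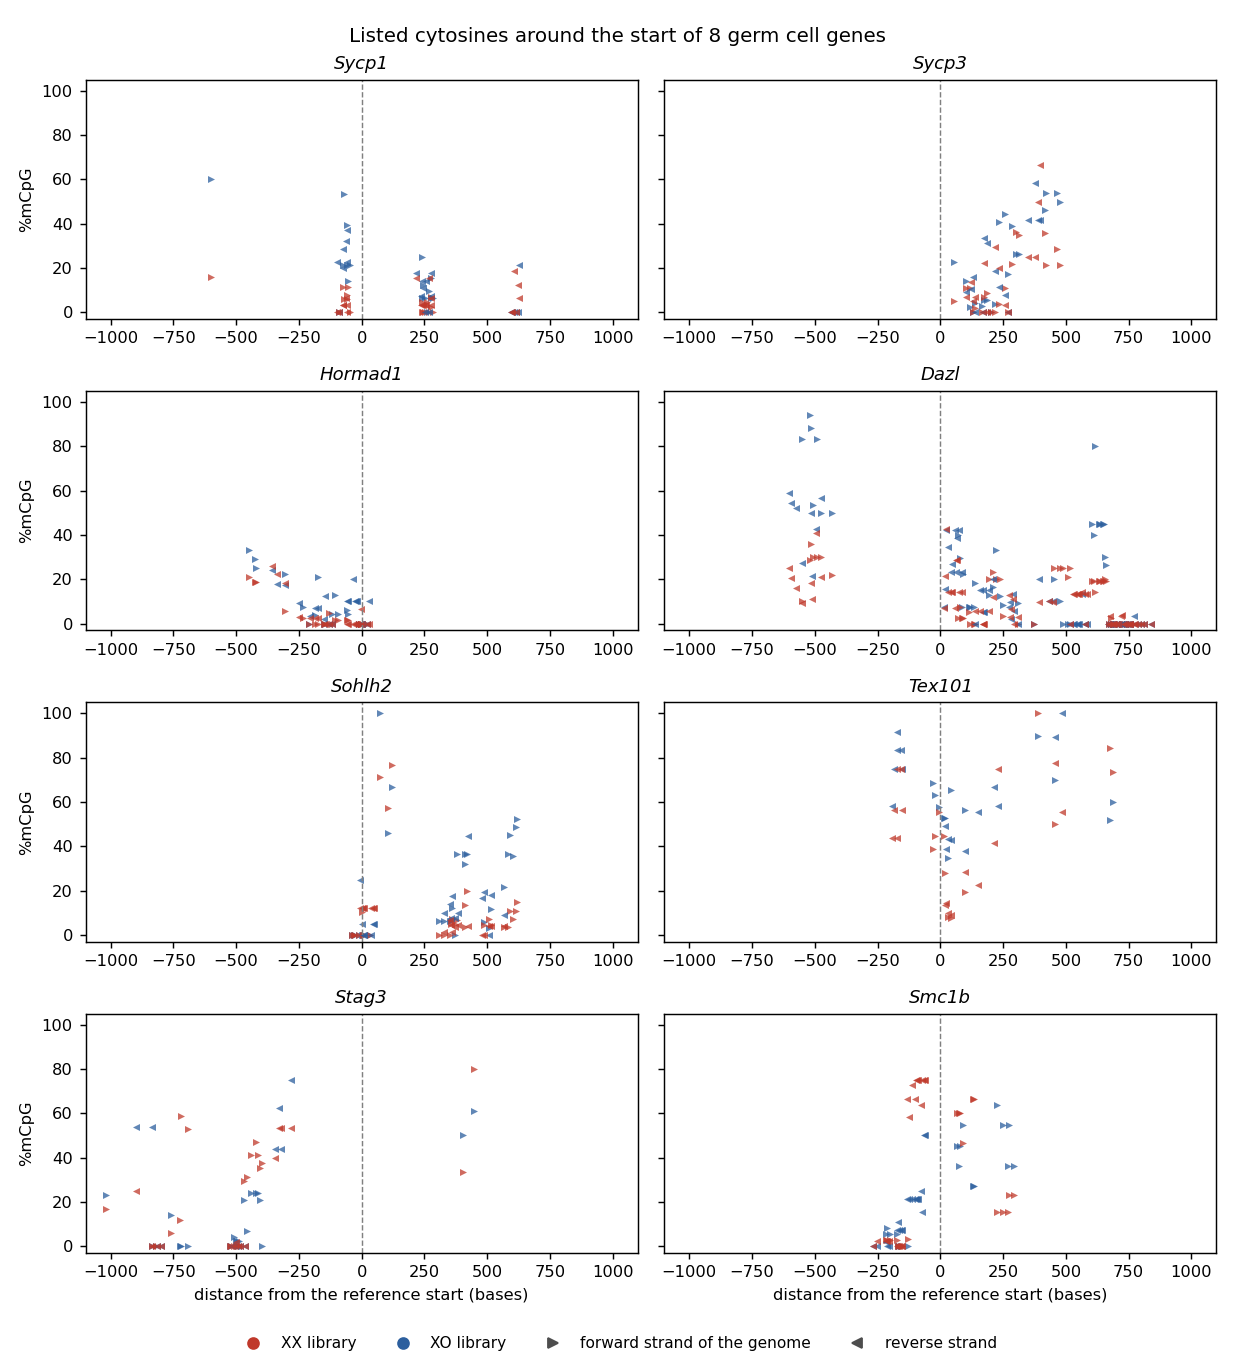
Methylation (%mCpG) of each listed cytosine against its distance in bases from the reference start (dashed line, transcription to the right) at 8 genes, red for the XX and blue for the XO library, with the direction of the triangles giving the strand of the genome. Blue lies above red upstream of Dazl and close to the starts of Sycp1 and Tex101, red lies above blue in the fragment over the start of Smc1b, and Dazl is near 0% in both libraries beyond 668 bases.

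Dazl (chr17:50279395-50293636) encodes an RNA-binding protein that germ cells of both sexes need. It had 121 listed cytosines, the most of the members, and all of them lay around its upstream starts. The averages were 9.64% (XX) and 16.7% (XO), with -11.0 points on the forward strand (53 cytosines) and -3.99 points on the reverse strand (68 cytosines). The 15 cytosines upstream of the gene, those of the sequence printed above, had mean methylation of 23.2% (XX) and 57.8% (XO). They belong to 3 fragments with differences of -44.9, -23.4 and -31.8 points, and each of the 15 was lower in XX cells. The 106 cytosines downstream of the start had mean methylation of 7.72% (XX) and 10.9% (XO). Among them, 19 cytosines between 15 and 140 bases had 11.96% and 24.2%, whereas from 668 to 838 bases 3 fragments had at most 0.595% in either library. Between 394 and 517 bases, 5 of 8 cytosines were higher in XX cells, and the averages were 18.7% and 8.75%.

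Sohlh2 (chr3:55182028-55209957), a basic helix-loop-helix transcription factor of early germ cells, had 49 cytosines with 9.49% in XX and 17.7% in XO cells, and was lower on the forward strand (-10.3 points, 30 cytosines) and on the reverse strand (-4.89 points, 19 cytosines). The cytosines over the start, from -38 to 49, were low in both libraries, with 6.30% in XX and 2.67% in XO cells. Directly behind them, 3 cytosines of a 238 bp fragment were highly methylated in both, with 68.5% and 70.9%. The intron was mixed. Its fragments at 310 to 382 and at 486 to 567 bases differed by -5.43 and -3.24 points. From 381 to 487 bases, 7 of 7 cytosines were lower in XX cells, with 6.76% and 31.6%, and from 566 to 618 bases 6 of 6 were, with 8.42% and 40.02%.

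Stra8 (chr6:34920163-34939344), which retinoic acid induces before meiosis, had 6 cytosines, all on the forward strand of 1 fragment in an intron, between 1027 and 1088 bases from its reference start and within the window of another annotated start. They had mean methylation of 33.8% (XX) and 35.3% (XO), with 2 lower and 4 higher in XX cells. No cytosine near the Stra8 start itself was listed.

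Tex101 (chr7:24668007-24676675), a glycoprotein on the surface of germ cells that is needed for fertile sperm, was the most methylated member. Its 28 cytosines had mean methylation of 44.7% (XX) and 63.3% (XO), an XO level above that of 97.4% of protein-coding promoters. The difference was -14.1 points on the forward strand (12 cytosines) and -21.9 points on the reverse strand (16 cytosines). It was largest directly behind the start, from 19 to 98 bases, where 7 of 7 cytosines were lower in XX cells and the averages were 11.7% and 47.2%. From -194 to 20, 11 of 11 were lower, with 51.01% and 69.2%. Deeper in the intron, from 455 to 686 bases, mean methylation was high in both libraries, with 72.8% and 75.4% over 4 cytosines. The strands disagreed there, with 78.9% (XX) and 56% (XO) on the forward strand and 66.7% and 94.7% on the reverse strand. The protein-coding promoters with the most similar pair of means, among those with at least 10 cytosines, were Th (43.97% in XX and 64.3% in XO cells), Krt84 (43.7% and 64.2%) and Syt8 (45.4% and 62.1%), all within 1.38 points of Tex101 in the plane of the XX and XO means.

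Over the 9 genes together, 212 cytosines were lower in XX cells, 103 were higher and 83 were equal, and nearly all of the latter were at 0% in both libraries. Over the cytosines of all protein-coding promoters 37.0% were lower and 30.6% higher. At least 10 points lower were 127 cytosines (background 16.9%), and 55 were at least 10 points higher (background 9.13%). Of the 50 fragments, 39 were lower and 9 higher in XX cells, against 55.0% and 37.0% of 103392 fragments in all protein-coding promoters. The background shares of cytosines and fragments were not matched for methylation level. Fragments under 150 bp had XO medians of 9.29% at the members and 2.46% over all protein-coding promoters. Dazl alone gave 121 of the 398 cytosines. By whole promoters, 7 of 9 members were lower, close to the 72.0% of all promoters. At least 10 points lower were 17 fragments (background 20.3%) and at least 10 points higher were 3 (background 6.25%). XX was lower on both strands at 6 of the 8 genes read on both, with Smc1b and Stag3 as the exceptions, and at 46.6% of 14938 protein-coding promoters read on both. Counted by place, 136 of the 398 cytosines lay outside the gene, 178 in introns and 84 in exons.

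**Figure D3:**
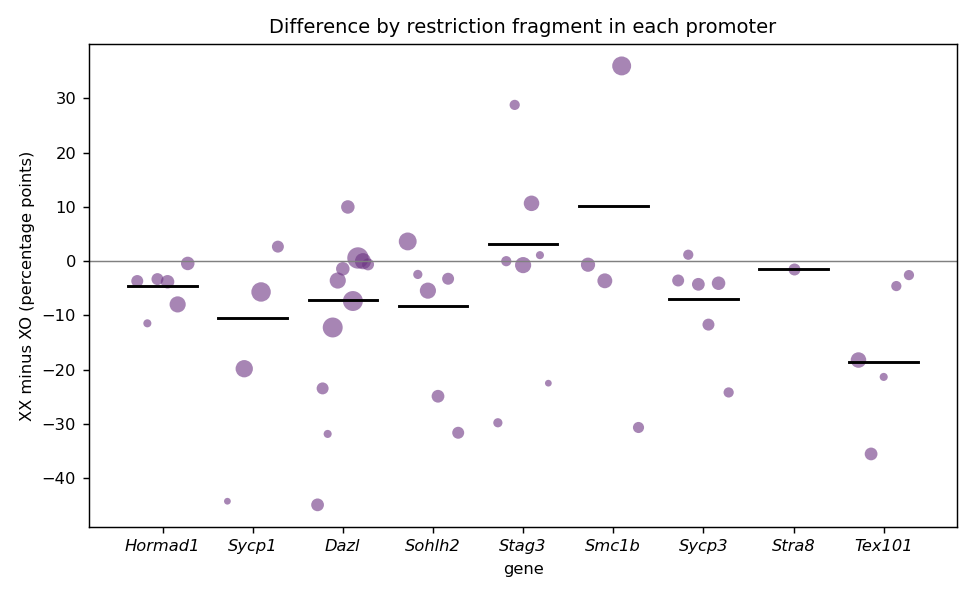
Difference in methylation, XX minus XO in percentage points, for each of the 50 fragments between CCGG sites in the promoters of 9 genes; circles are fragments from upstream to downstream with area growing with the number of cytosines, and black bars are the mean over all cytosines of the gene. Tex101 and Hormad1 have all their circles below 0, and the Smc1b bar is above 0 because of 1 circle at 35.96 points.

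Gene bodies allowed a comparison at few members, because 5 of the 10 had no listed cytosine there. At Sycp1, 11 cytosines of the gene body had mean methylation of 22.9% (XX) and 39.3% (XO). At Hormad1, 4 cytosines averaged 66.9% and 78.8%, and at Stag3, 12 cytosines averaged 40.03% and 63.3%. The Sohlh2 gene body was higher in XX cells, with 58.1% and 49.7% over 6 cytosines. The strands of these gene bodies rested on few cytosines. They differed in direction at Hormad1, with -31.8 points (forward, 2 cytosines) and 7.93 points (reverse, 2 cytosines). At Sycp1 they gave -19.0 points (forward, 9 cytosines) and -4.12 points (reverse, 2 cytosines), at Stag3 -33.1 and -16.2 points (5 and 7 cytosines), and at Sohlh2 6.03 and 8.83 points (1 and 5 cytosines). Stra8 had only 2 cytosines, with 59.6% and 74.6%, under the minimum of 3. At each of these 5 genes the gene body was more methylated than the promoter in both libraries. The median difference of the 4 gene bodies was -14.1 points, and 3 of the 4 were at least 10 points lower, as were 72.4% of 13135 protein-coding gene bodies with a median of -15.9 points. Lower by any amount were 94.6% of these gene bodies, and 0.830% were at least 10 points higher, which none of the 4 was. Promoter minus gene body differences were 5.87 points at Sycp1, 7.33 at Hormad1, 26.3 at Stag3 and -16.5 at Sohlh2. Their median was 6.60 points, below the median of 12.2 points over 11229 protein-coding genes with both values.

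Because so few gene bodies were read, the 25 kb on either side of each gene were added as a contrast after the data had been seen. These stretches can hold promoters of other genes. They were lower in XX cells at all 9 members with a listed cytosine there, from -20.6 points at Sohlh2 (34.3% in XX and 54.9% in XO cells, 23 cytosines) to -2.40 points at Smc1b (40.6% and 43.0%, 24 cytosines). At Sycp3 the surroundings had 23.2% and 42.5%, at Dazl 42.2% and 59.7%, at Hormad1 16.2% and 30.9%, and at Tex101 18.0% and 35.1%. The promoter difference was nearer to 0, or above it, at 7 of the 8 members with both values. Tex101 was the exception, with -18.6 points at the promoter and -17.1 points around the gene. The surroundings of other genes were not measured, so these counts have no background share and show no trait particular to the members. Among all protein-coding gene bodies 94.6% were lower in XX cells.

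Of 34 other genes of meiosis and germ cell development, 28 had at least 3 listed promoter cytosines. Their median difference of -2.03 points was close to the -2.14 points of all protein-coding promoters, with 19 lower (background 72.0%) and 9 higher in XX cells, and median levels of 13.4% in XX and 17.0% in XO cells. At least 10 points lower were 6 of them (21.4%, background 14.0%) and at least 10 points higher were 2 (7.14%, background 1.57%). The largest differences towards lower methylation in XX cells were at Msh5, a meiotic MutS homologue (20.6% in XX and 53.8% in XO cells, 3 cytosines), and at the oocyte transcription factors Figla (26.9% and 56.25%, 4 cytosines) and Nobox (20.5% and 42.5%, 8 cytosines), which rest on few cytosines. Terb1, which ties telomeres to the nuclear envelope in meiosis, was higher in XX cells (23.6% and 7.80%, 45 cytosines), and so was Rec114, a partner of the meiotic break machinery (77.0% and 63.7%, 9 cytosines). All 20 gene bodies of these genes with at least 3 cytosines were lower in XX cells, as were 94.6% of all protein-coding gene bodies, with a median difference of -19.2 points against -15.9 points.

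**Figure D4:**
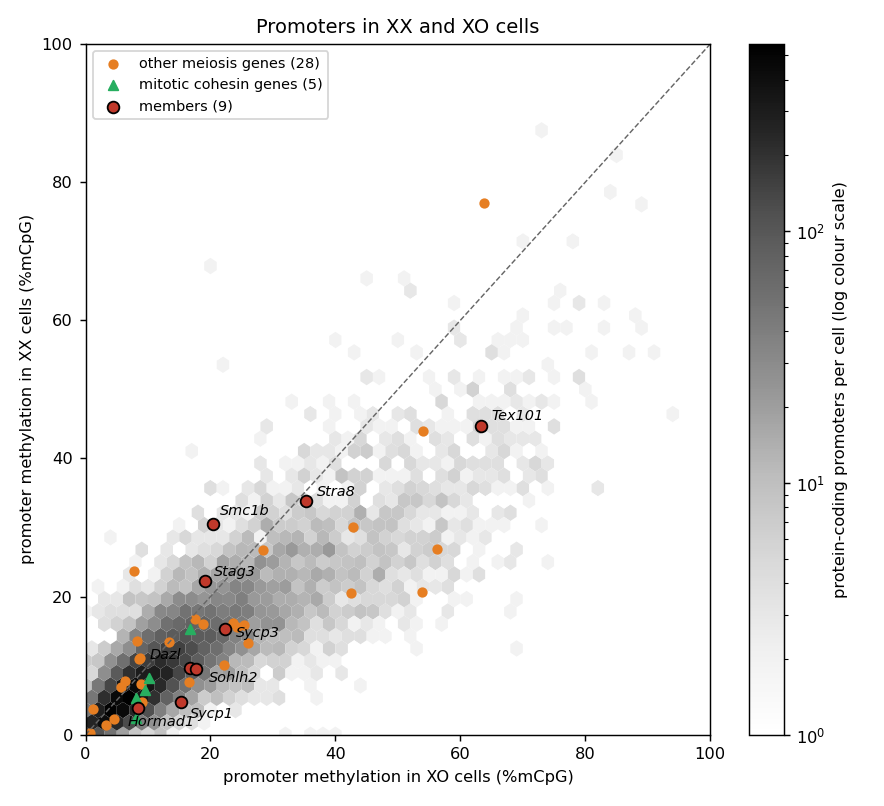
Mean promoter methylation (%mCpG) in XX cells against XO cells for 15331 protein-coding promoters (grey, log colour scale), the 9 members, 28 other meiosis genes and 5 mitotic cohesin genes; the dashed line marks equal values. Of the members, Smc1b and Stag3 lie above the line, Stra8 lies just below it and Tex101 lies farthest below it, at 63.3% in XO and 44.7% in XX cells.

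The sequence from 250 bases before to 50 bases after each reference start was searched on both strands for 3 motifs. The E-box CACGTG occurred at 4 of the 10 members (Sycp1, Sycp3, Hormad1 and Stag3) and at 7.76% of 21938 protein-coding genes. The E2F core TCCCGC occurred at 5 members (those 4 and Smc1b) and at 25.3% of all genes. The motif CNCCTCAG, known from STRA8 binding, occurred at 4 members (Sycp1, Dazl, Sohlh2 and Stra8) and at 8.31% of all genes. No match of one motif overlapped a match of another. The members' windows held between 7 CpGs at Stra8 and 32 at Stag3, with a median of 12 over all genes. All members but Stra8 and Rec8 (11 CpGs) were above that median. The E-box and the E2F core each contain a CpG, and the shares of all genes were not matched for CpG content.

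A CpG inside a motif had a listed value at 3 members. In the Hormad1 E-box 57 bases before the start, XX and XO cells had 1.49% and 4.17% on the forward strand and 0% and 10% on the reverse strand. The Hormad1 E2F match had 1.49% and 4.17%. The Sycp1 E-box was listed at 0% in both libraries, within the fragment whose other cytosines were methylated at 14.3% to 53.6% in XO cells. In the Dazl match of the STRA8 motif, 31 bases into the gene, 1 cytosine had 14.3% in XX and 34.6% in XO cells. A match of letters does not show that a factor binds there.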

How the data were processed

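RRBS libraries of FACS-sorted XX and XO Xmas mESCs were made with an Ovation kit, 1 library per karyotype. The submitters' processing notes name bcl2fastq, Bismark and mm10, and the coverage minimum is not given in the sources used here. The authors deposited the percent of methylated reads for each CpG cytosine, with the strands of a CpG listed separately. No value was missing in either library, and the table had 0 further sample columns. Positions were placed on GRCm38.p6, on which 51 rows were at no CpG. Genes and starts were those of GENCODE M21, and the reference start was that of the transcript with the best APPRIS principal rank. Each listed cytosine counted once in a mean, and list summaries used windows with at least 3 cytosines. A size of 10 points was used to count differences because no test was possible. Members, gene lists and tests were chosen with earlier results of these data known. By the rule for named genes all members were named, with the 3 largest falls and any rise of at least 10 points among 34 other meiosis genes. Mitotic cohesin genes were given as a range. The 3 promoters nearest to the member with the largest difference were also named. Sequences were printed for the 3 members with the largest difference near the start and the one with the lowest XO mean. Bases of annotated exons were left out of them. Fragments between CCGG sites and the 25 kb surroundings were added after the data were seen. The alternatives were other windows, strands, minimums, medians, thresholds and leaving out members. The code was tested on simulated data and used Python 3.11.15, numpy 2.4.6, pandas 2.3.3 and matplotlib 3.10.9. Intervals were not computed because the depth is unknown.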

Additional observations from a re-analysis of the deposited data

How the results depend on the processing

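With 1 library per karyotype and no read counts, no alternative could be judged against replicate error, so a difference was said to move when it shifted by at least 5 points, and a count when it changed by more than 1.5 times. No paired analysis was possible because each karyotype had 1 library. The median promoter difference stayed within 5 points of -7.02 under each alternative tried, including those added after seeing the data, with a range from -9.94 to -4.62 points, and lay between -7.04 and -5.82 points with any 1 member left out.

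The number of promoters at least 10 points lower in XX cells was 2. It was 4 on the forward strand, 1 on the reverse strand and 1 with each CpG counted once. With each fragment counted once it was 4, and without the leading fragment of each member it was 1 (both added after seeing the data). Thresholds of 5 and 20 points gave 5 and 0, and leaving out members gave 1 to 2, with 1 without Sycp1 or without Tex101. The median gene body difference of -14.1 points became -26.1 on the forward strand, -3.70 on the reverse strand and -19.8 with at least 10 cytosines, each over 2 genes, and it was -16.3 to -11.9 with a member left out. Promoter minus gene body, 6.60 points, became 23.7, -2.53 and 16.1 under the same settings, and 5.87 to 7.33 with a member left out.

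At Smc1b the direction turned to -1.99 points on the forward strand, -6.04 with the median over cytosines and -8.13 without its leading fragment, and it was 21.7 on the reverse strand and 0.266 with each fragment once. Stag3, 3.08 points, became 9.56 and -7.55 on the strands, 9.64 with the median, -0.778 with 2 kb windows, -1.77 with each fragment once and -0.120 without its leading fragment. Dazl moved from -7.06 to -1.53 points with the median, Sycp1 from -10.4 to -16.8 with each fragment once and -5.21 without its leading fragment, and Tex101 from -18.6 to -12.9 without its own. With each fragment once, the single Sycp1 cytosine at -599 and the single Stag3 cytosine at 19650 bases each counted as a fragment. The share of all promoters at least 10 points lower was 8.80% with at least 10 cytosines and 23.2% for genes of any type. The causes of these shifts were not tested.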
